A study of Homo sapiens with 4 samples.

Results

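Small nucleolar RNA (snoRNA) host gene transcripts are the spliced long noncoding RNAs left when snoRNAs are cut out of introns. The 10 transcripts described here, GAS5, SNHG1, SNHG3, SNHG5, SNHG6, SNHG7, SNHG8, SNHG12, SNHG15 and SNHG16, were taken as a list by gene symbol from 44715 gene symbols, by a rule that uses no measured value. All 10 had a row in every table, and 39 of their 40 values were above 0.

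A snoRNA host gene carries its snoRNAs in introns, and the exons often encode no protein. Box C/D snoRNAs guide ribose methylation and box H/ACA snoRNAs guide pseudouridylation, mostly of ribosomal RNA. Many host transcripts begin with a terminal oligopyrimidine (TOP) tract, a C followed by further pyrimidines that is shared with the mRNAs of ribosomal proteins and places a transcript under translational control by mTOR signalling. The spliced transcripts reach the cytoplasm, are engaged by ribosomes over short open reading frames, and several of them are degraded quickly by nonsense-mediated decay.

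RNA immunoprecipitation sequencing (RIP-seq) was done in HEK293T, an established line derived from human embryonic kidney and carrying SV40 large T antigen, to ask whether PHGDH, an enzyme of serine synthesis, associates with RNA. Native cell lysates went onto beads with an antibody against PHGDH (2 libraries) or with a control IgG antibody (2 libraries), and the series design calls the 2 libraries of an antibody biological replicates. No RNA from the unprecipitated lysate was analysed here, so a level is a share of the RNA recovered on the beads and not a share of the transcript in the cell.

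The tables hold CPM, the reads of a gene scaled so that the reads assigned to genes have the same total in every library. Assigned reads numbered 3365837 (replicate 1) and 1216477 (replicate 2) with the PHGDH antibody, and 3875746 and 1579430 with IgG. IgG replicate 1 stood apart: it listed 4148 genes above 0, where the other 3 libraries listed 14518 to 16767. The share of mitochondrially encoded genes was 28.8% in anti-PHGDH replicate 1 and 3.37% to 8.69% in the others. Of the markers of this cell line, NEFL was at 50.0 to 399 CPM and NEFM at 75.5 to 351 CPM over the 4 libraries. ENO2 (19.6 to 32.9 CPM), INA (2.53 to 6.24 CPM) and PAX2 (1.49 to 1.9 CPM, 2 to 5 reads) were above 0 in 3 of them and at 0 in IgG replicate 1. The leukocyte marker PTPRC and the endothelial marker PECAM1 were at 0 in all. CD68, COL1A1, COL3A1 and ALB, markers of other cell types, were at 0 in IgG replicate 1 and at no more than 12.3 CPM in any library. Outside IgG replicate 1, COL1A1 was at 7.6 to 12.3 CPM, above INA and PAX2 in each library. IgG replicate 1 enters every comparison below that uses all 4 libraries, and the fold change of each member is also given without it.

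To show how the members' 5′ ends compare with a TOP start, 30 bases around the annotated start are printed for the 8 members found in the RefSeq promoter table (GRCh38.p14), with 10 bases before the start and 20 from it. Capitals mark the longest run of only C and T that begins with C at one of the 5 positions on either side of the start.
GAS5: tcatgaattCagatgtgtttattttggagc
SNHG1: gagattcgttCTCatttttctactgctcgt
SNHG3: gtgagtttctgattCTCTaactgcgcatgc
SNHG5: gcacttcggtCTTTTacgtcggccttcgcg
SNHG7: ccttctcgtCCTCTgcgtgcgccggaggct
SNHG8: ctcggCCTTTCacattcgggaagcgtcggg
SNHG12: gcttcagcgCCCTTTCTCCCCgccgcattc
SNHG16: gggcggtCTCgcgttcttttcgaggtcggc
The windows are, in the same order, chr1:173869026-173869055 (minus strand), chr11:62855866-62855895 (minus), chr1:28505933-28505962 (plus), chr6:85678714-85678743 (minus), chr9:136728165-136728194 (minus), chr4:118278752-118278781 (plus), chr1:28581854-28581883 (minus) and chr17:76557754-76557783 (plus). SNHG6 and SNHG15 were not matched.

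A run of at least 6 letters was present at the start of SNHG12 (12 letters) and SNHG8 (6 letters), 2 of the 8 members matched. The same rule was met by 2792 of 27305 promoters (10.2%) on the sense strand and by 2578 (9.44%) on the opposite strand, and by 0 of the 8 members on the opposite strand. Among 64 promoters of ribosomal protein genes, whose mRNAs are the best known TOP mRNAs, 46 met it (71.9%). With a run of at least 5 letters, a limit chosen after the sequences were seen, SNHG5 and SNHG7 were added (4 of 8 members, beside 19.6% of all promoters). The run depends on the start that RefSeq annotates, and a start a few bases away gives another run. The run of SNHG8 begins 5 bases before its annotated start. The start used for SNHG12, chr1:28581873 on the minus strand, lies inside the annotated span of the gene, whose 5′ end is at 28582983, so its run is not at the outermost start.

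The 10 host transcripts were recovered with both antibodies, and none of them passed the test between antibodies. GAS5, SNHG6 and SNHG12 had lower values on the anti-PHGDH side than either IgG library, SNHG15 and SNHG16 had higher values there than either IgG library, and the values of the other 5 overlapped. Across the 9524 genes that reached 5 CPM in 2 or more libraries, the groups failed to overlap in the lower direction for 6.16% of genes and in the higher direction for 38.3%. The share in the lower direction was 16.2%, and that in the higher direction 19.3%, among the 3629 genes above 0 in IgG replicate 1. Beside these shares, the members gave 3 of 10 lower and 2 of 10 higher, or 3 and 1 of the 9 members above 0 in IgG replicate 1. Without IgG replicate 1, 5 members (GAS5, SNHG5, SNHG6, SNHG8 and SNHG12) were lower in both anti-PHGDH libraries and 3 (SNHG1, SNHG15 and SNHG16) were higher, beside 25.1% and 43.9% of all genes.

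**Figure D1:**
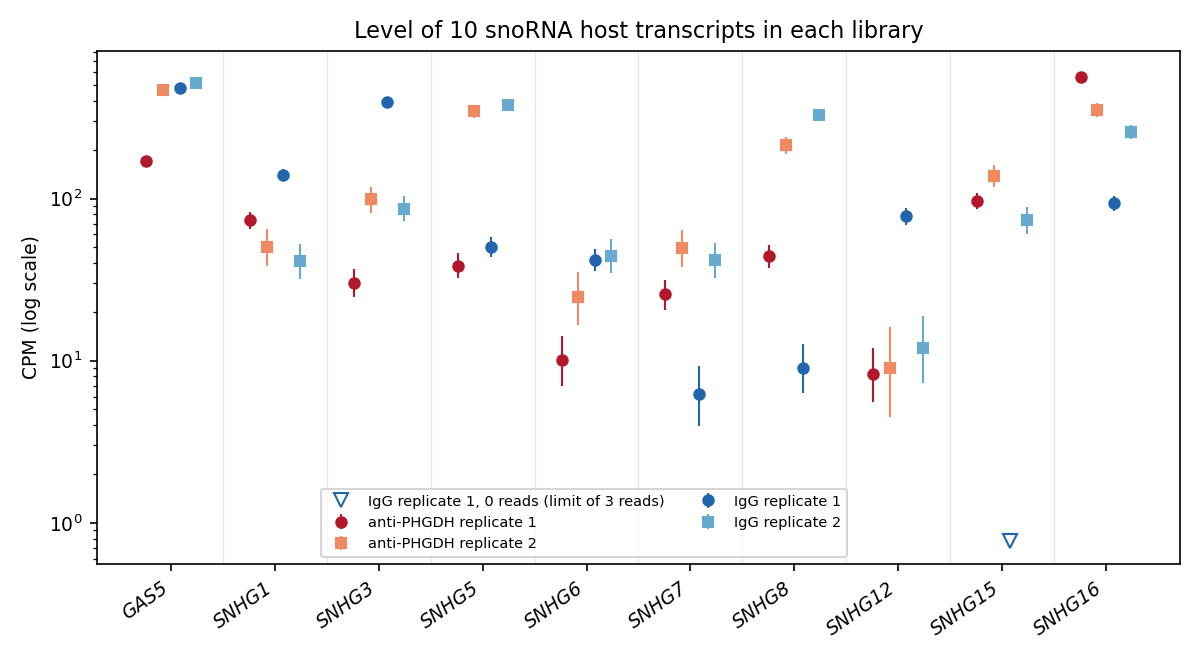
CPM of each host transcript on a log axis in the 4 libraries, with exact 95% Poisson intervals of the read count as bars (counting error only); the open triangle marks 0 reads in IgG replicate 1, drawn at the limit of 0.774 CPM. GAS5 has 3 values between 469 and 513 CPM and 1 at 169.6 CPM, and SNHG8 runs from 9.03 CPM in IgG replicate 1 to 327 CPM in IgG replicate 2.

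All 10 members passed the filter. By limma on log2(CPM + 1), adjusted by Benjamini-Hochberg over every gene that passed it, 0 of 10 members were higher (background 0.0105% of genes, 1 gene) and 0 of 10 lower (background 0%) at an adjusted p under 0.05. At an unadjusted p under 0.05 the members gave 0 in either direction, beside 2.74% of all genes higher and 0% lower. The split over all genes depended on the scaling and the tool. Of the 9524 genes, centring on library medians gave 43 higher and 359 lower at that threshold, and quantile normalization 196 and 176. On the recovered reads edgeR gave 21 and 162, and DESeq2 89 and 149. Of the members, 2 passed the unadjusted threshold after centring, 1 after quantile normalization, and 0 in edgeR and DESeq2. With 2 libraries per antibody an exact permutation test of 1 transcript cannot give a two-sided p below 0.333. The standard errors below come from the trend of spread against level across genes and not from the gene alone.

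GAS5, which accumulates when cells stop growing and carries box C/D snoRNAs in nearly every intron, lies at chr1:173863901-173869045 in the GRCh38.p14 annotation. It was at 169.6 and 469 CPM on anti-PHGDH beads (replicates 1 and 2) (571 and 570 reads), and at 479.6 and 513 CPM on IgG beads (replicates 1 and 2) (1859 and 811 reads). Only anti-PHGDH replicate 1 stood apart, and the other 3 libraries lay within 1.10 times of one another. The means were 319 ± 211 CPM on anti-PHGDH beads and 497 ± 23.9 CPM on IgG beads (SD, n = 2 each), and the log2 fold change came to -0.81 (SE 1.37; limma adjusted p = 0.699). Without anti-PHGDH replicate 1 it was -0.08, and without IgG replicate 1 it was -0.86. When CPM were recomputed without the mitochondrial genes, GAS5 was at 238 and 513 CPM on anti-PHGDH beads and at 499 and 531 CPM on IgG beads, so the groups then overlapped.

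SNHG16, host of the SNORD1 family of box C/D snoRNAs, lies at chr17:76557764-76565348. It was at 559 and 353 CPM on anti-PHGDH beads (1883 and 429 reads) and at 93.7 and 257 CPM on IgG beads (363 and 406 reads). Both anti-PHGDH values were above both IgG values, and the gap between the nearest values, anti-PHGDH replicate 2 and IgG replicate 2, was 1.37 times (95% interval of counting error 1.20 to 1.58). The means were 456 ± 146 and 175 ± 116 CPM (SD, n = 2 each), with a log2 fold change of 1.51 (SE 1.44; limma adjusted p = 0.677). It was 0.79 without IgG replicate 1.

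SNHG5, host of SNORD50A and SNORD50B, lies at chr6:85677007-85678733. It was at 38.6 and 344 CPM on anti-PHGDH beads (130 and 419 reads) and at 50.3 and 378 CPM on IgG beads (195 and 597 reads). The libraries sorted by replicate number and not by antibody: both numbered 1 were low and both numbered 2 were high. Anti-PHGDH replicate 2 was 8.92 times replicate 1 (interval 7.31 to 10.9), and IgG replicate 2 was 7.51 times replicate 1 (6.38 to 8.88). The log2 fold change between antibodies came to -0.25 (SE 1.64; limma adjusted p = 0.919), -1.70 without IgG replicate 1 and 1.31 without anti-PHGDH replicate 1.

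SNHG1, whose introns hold a cluster of box C/D snoRNAs, lies at chr11:62851978-62855885. It was at 73.4 and 50.1 CPM on anti-PHGDH beads (247 and 61 reads) and at 139.8 and 41.2 CPM on IgG beads (542 and 65 reads). IgG replicate 1 was the highest and IgG replicate 2 the lowest of the 4 values, so both anti-PHGDH libraries lay between the IgG libraries. The log2 fold change came to -0.32 (SE 1.85; limma adjusted p = 0.909), or 0.55 when IgG replicate 1 was left out.

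SNHG6, host of SNORD87, lies at chr8:66921690-66925541. It was at 10.1 and 24.7 CPM on anti-PHGDH beads (34 and 30 reads) and at 41.8 and 44.3 CPM on IgG beads (162 and 70 reads). The IgG libraries lay close together, and both anti-PHGDH libraries were below them. The means were 17.4 ± 10.3 and 43.1 ± 1.78 CPM (SD, n = 2 each), and the log2 fold change came to -1.38 (SE 2.28; limma adjusted p = 0.696), or -1.43 when IgG replicate 1 was left out. Its log2 fold change was below 0 in all 17 alternative fits. Those limma fits that change only the filter, the trend or a replicate term leave a fold change as it is, so they could not turn it.

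Among the hosts of box H/ACA snoRNAs, SNHG15, host of SNORA9 (chr7:44983023-44986696), had the largest log2 fold change of the members. It was at 96.6 and 137 CPM on anti-PHGDH beads (325 and 167 reads) and at 0 and 73.4 CPM on IgG beads (0 and 116 reads). Both anti-PHGDH values were above both IgG values, and the 0 in IgG replicate 1 allows up to 0.774 CPM at a limit of 3 reads. The log2 fold change came to 3.75 (SE 2.20; limma adjusted p = 0.677), which depends on the pseudocount because of that 0, and it was 0.64 without IgG replicate 1.

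SNHG8, host of SNORA24 (chr4:118278762-118279823), was at 44.0 and 213 CPM on anti-PHGDH beads (148 and 259 reads) and at 9.03 and 327 CPM on IgG beads (35 and 517 reads). It had the widest spread between the IgG libraries among the members above 0 in both, with IgG replicate 2 at 36.2 times replicate 1 (25.7 to 52.6). The log2 fold change came to 0.77 (SE 1.81; limma adjusted p = 0.770), or -1.74 when IgG replicate 1 was left out. Its sign turned in 6 of the 17 alternative fits, that one among them.

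SNHG3, host of SNORA73A and SNORA73B (chr1:28505943-28510892), was at 30.3 and 98.6 CPM on anti-PHGDH beads (102 and 120 reads) and at 394 and 86.7 CPM on IgG beads (1526 and 137 reads). IgG replicate 1 held 4.54 times the level of IgG replicate 2 (3.81 to 5.45), and anti-PHGDH replicate 2 and IgG replicate 2 had a ratio of 1.14, with a counting interval that held 1 (0.883 to 1.46). The log2 fold change came to -1.74 (SE 1.71; limma adjusted p = 0.677), or -0.65 when IgG replicate 1 was left out. The SNHG3 span overlaps RCC1 in the annotation, and RCC1 was likewise highest in IgG replicate 1. Overlapping genes did not all follow their host. DIPK1B was lowest in that library, as SNHG7 was, but TRNAU1AP was at 0 there, where SNHG12, which it overlaps, was highest. Sharing of reads was not tested.

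SNHG7, host of SNORA17A and SNORA17B (chr9:136724594-136728184), was at 25.6 and 49.3 CPM on anti-PHGDH beads (86 and 60 reads) and at 6.19 and 41.8 CPM on IgG beads (24 and 66 reads). IgG replicate 1 was low and the other 3 libraries lay between 25.6 and 49.3 CPM. Its log2 fold change came to 1.06 (SE 2.32; limma adjusted p = 0.755), or -0.23 when IgG replicate 1 was left out.

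SNHG12 (chr1:28578538-28582983), which carries H/ACA snoRNAs together with a C/D snoRNA, was at 8.32 and 9.04 CPM on anti-PHGDH beads (28 and 11 reads) and at 77.7 and 12 CPM on IgG beads (301 and 19 reads). It was lowest in both anti-PHGDH libraries, but 3 of the 4 values rest on fewer than 30 reads and lie within one another's counting intervals, so a difference among those 3 was not detectable at this depth. The log2 fold change came to -1.73 (SE 2.54; limma adjusted p = 0.680), or -0.43 when IgG replicate 1 was left out.

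As a list, the members had a median log2 fold change of -0.29, from -1.74 (SNHG3) to 3.75 (SNHG15), where all 9524 genes tested had a median of 1.92. The fold change was below 0 for 6 of the 10 members and for 19.3% of all genes. Of the members, 9 of 10 were above 0 in IgG replicate 1, beside 38.1% of all genes tested. That library is part of the fold change, so a gene's presence in it lowers the value by construction. Among genes above 0 in it the median was -0.03 for all 3629 genes and -0.32 for the 9 members, and 50.5% of the genes and 6 of the 9 members had a fold change below 0. The members' median turned sign with the library left out: leaving out anti-PHGDH replicate 1 gave 0.55, anti-PHGDH replicate 2 gave -0.95 and IgG replicate 2 gave 0.21. It was -0.03 when CPM were recomputed without mitochondrial genes. Without IgG replicate 1 the median was -0.54, and its difference from the median of all genes was -0.68, where that difference was -2.21 with all 4 libraries. SNHG15 was the only member with a fold change above the median of all genes, and 95.2% of genes had a lower one. SNHG3 and SNHG12 lay lowest, with 4.88% and 4.98% of genes below them.

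**Figure D2:**
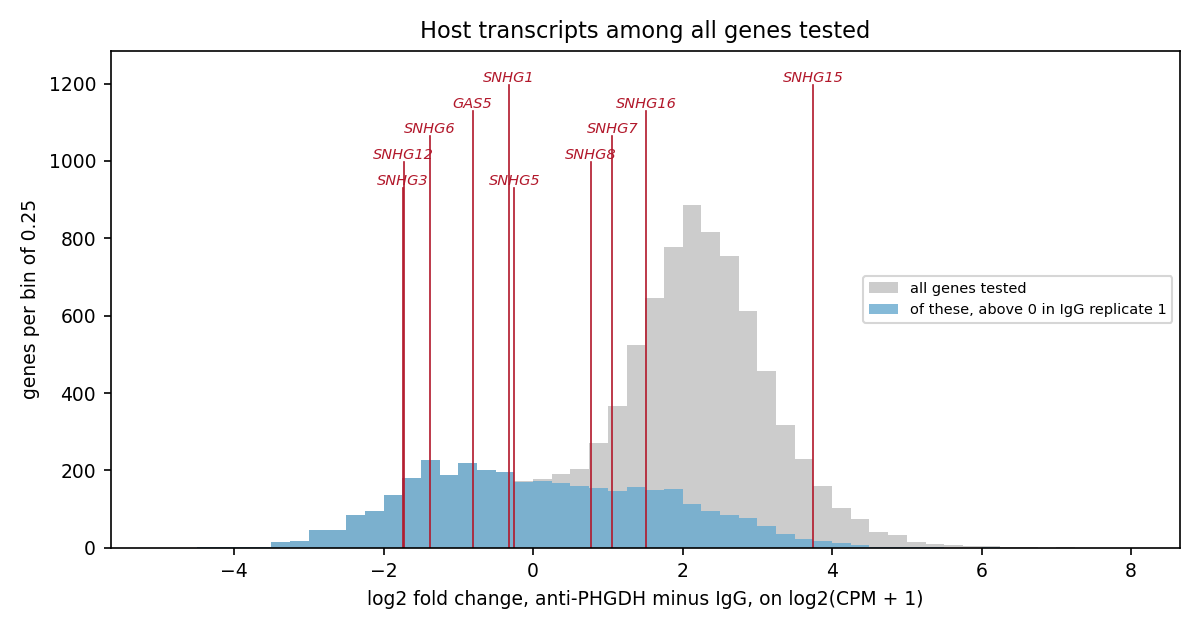
Histogram of log2 fold changes, anti-PHGDH minus IgG on log2(CPM + 1), for the 9524 genes tested (grey) and for the 3629 of them above 0 in IgG replicate 1 (blue), with the 10 host transcripts as red lines whose heights carry no value. Most members lie left of the grey peak, within the blue distribution, and SNHG15, at 0 in IgG replicate 1, lies to the right at 3.75.

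In a count that needs no estimate of spread, each anti-PHGDH value was set against each IgG value on CPM + 1, and 0 members were 2-fold or more higher in all 4 pairs (9.3% of all genes tested) and 0 were 2-fold or more lower (0.084%). Without IgG replicate 1 both counts were again 0, beside 10% and 0.388% of all genes. SNHG6 came nearest in the lower direction and was counted when the rule was set at 1.5-fold, as were 0.735% of all genes. SNHG16 was counted as 2-fold higher once anti-PHGDH replicate 2 was left out, as was the case for 21.9% of all genes, and GAS5, SNHG3 and SNHG6 were then counted as 2-fold lower (3.8% of genes).

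Within replicate number 2, where both libraries listed a like number of genes, the ratio of anti-PHGDH to IgG level ran from 0.556 (SNHG6) to 1.87 (SNHG15). The members' median ratio on CPM + 1 was 1.02 and that of all genes 1.13. For 6 members, GAS5, SNHG1, SNHG3, SNHG5, SNHG7 and SNHG12, the 95% interval of counting error held 1. SNHG8 had a ratio of 0.650 (0.558 to 0.757) and SNHG6 of 0.556 (0.350 to 0.865), both below 1, and SNHG16 at 1.37 (1.20 to 1.58) and SNHG15 at 1.87 (1.47 to 2.39) were above it. These intervals cover counting error only and set 1 library against 1 other, and they compare libraries, not antibodies. On CPM + 1, 0 members were 2-fold higher (12.5% of all genes) and 0 were 2-fold lower (1.97%).

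Within replicate number 1 the same ratios were spread over more than 2 orders of magnitude. SNHG3 was at 0.0770 times the IgG level (0.0624 to 0.0941), SNHG12 at 0.107 (0.0700 to 0.158), SNHG6 at 0.242 (0.162 to 0.352) and GAS5 at 0.354 (0.321 to 0.389). In the other direction SNHG7 was at 4.13 times (2.60 to 6.79), SNHG8 at 4.87 times (3.35 to 7.25), SNHG16 at 5.97 times (5.34 to 6.70) and SNHG15 at least 125-fold higher, taking 3 reads as the limit for the 0 in IgG replicate 1 (the exact 95% interval of that ratio begins at 101). Of the 10 members, 4 were at least 2-fold lower with anti-PHGDH (15.3% of all genes) and 4 at least 2-fold higher (76.6%). The members' median ratio on CPM + 1 was 0.639 and that of all genes 12.3, so SNHG7, SNHG8 and SNHG16 lay below the median of all genes here. SNHG6 was lower, and SNHG15 and SNHG16 higher, in both numbers with intervals that left out 1. SNHG8 pointed opposite ways in the 2 numbers.

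**Figure D3:**
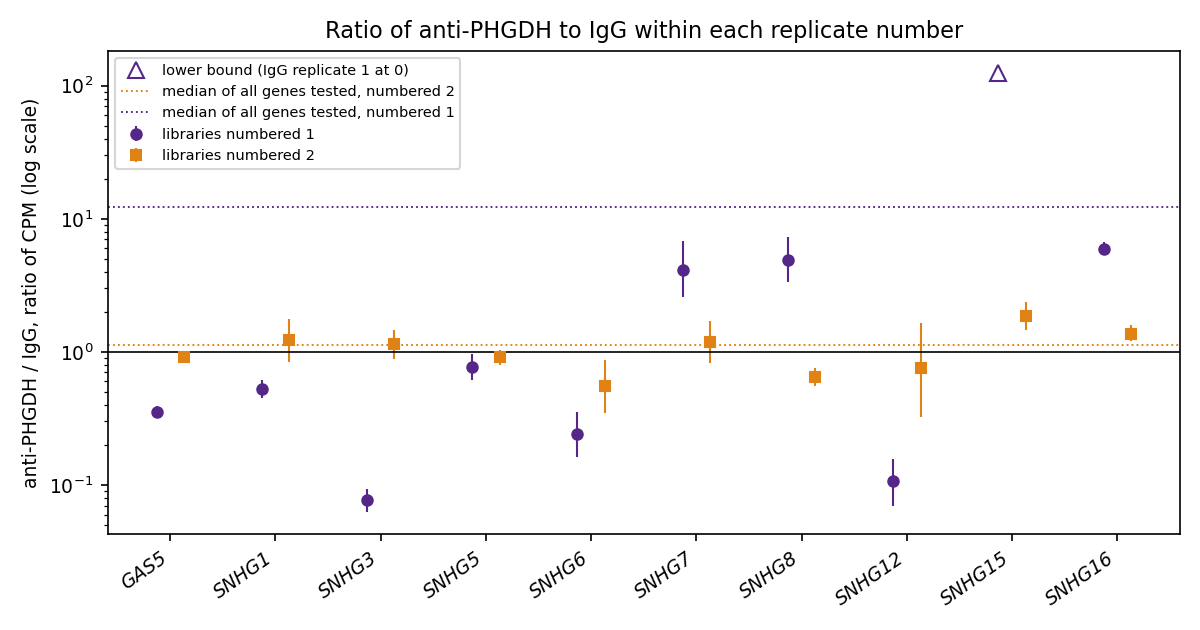
Ratio of anti-PHGDH to IgG CPM on a log axis for each host transcript, within the libraries numbered 1 (circles) and numbered 2 (squares), with exact 95% intervals of counting error; dotted lines are the medians over all genes tested on CPM + 1 (12.3 and 1.13), and the triangle is a lower bound. The squares lie between 0.556 and 1.87, and the circles run from 0.0770 (SNHG3) to the bound of 125 for SNHG15. That bound takes 3 reads for the 0 in IgG replicate 1, and the exact 95% interval begins at 101.

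Replicates of one antibody differed for most members by more than counting error. Anti-PHGDH replicate 2 was at least 2-fold above replicate 1 for GAS5, SNHG3, SNHG5, SNHG6 and SNHG8, 5 of 10 members beside 14.4% of all genes, and replicate 1 was 2-fold above replicate 2 for 0 members beside 13.5%. A larger mitochondrial share lowers the CPM of all other genes in a library by construction. With the mitochondrial genes left out, replicates 1 and 2 were at 238 and 513 CPM for GAS5, 42.6 and 108 CPM for SNHG3, 54.3 and 377 CPM for SNHG5, 14.2 and 27 CPM for SNHG6, and 61.8 and 233 CPM for SNHG8. SNHG6 was then less than 2-fold apart. IgG replicate 1 was at least 2-fold above IgG replicate 2 for SNHG1, SNHG3 and SNHG12 (13.8% of all genes) and at least 2-fold below it for SNHG5, SNHG7, SNHG8, SNHG15 and SNHG16 (77.6%). GAS5 and SNHG6 were the 2 members for which the IgG replicates did not differ beyond counting error, at ratios of 0.934 (0.860 to 1.02) and 0.943 (0.708 to 1.27). Summed over the 10 members, the level was 1056 and 1748 CPM on anti-PHGDH beads and 1292 and 1775 CPM on IgG beads, so both libraries numbered 1 were below both numbered 2.

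The snoRNAs that the hosts carry were read as rows of their own. Of 35 snoRNAs listed for the 10 hosts, 34 had a row, 13 of these were at 0 in all 4 libraries, and SNORD47 and SNORD80, both in GAS5 introns, passed the filter on low values. Reads in snoRNA rows were concentrated in IgG replicate 1. SNORD80 was at 9.21 and 14.0 CPM on anti-PHGDH beads and at 104 and 11.4 CPM on IgG beads. SNORD47 was at 9.51 and 7.40 CPM on anti-PHGDH beads and at 94.7 and 8.23 CPM on IgG beads. Both had log2 fold changes without a call (-1.55 and -1.66; limma adjusted p = 0.688 and 0.686). Each was about as high with anti-PHGDH as in IgG replicate 2, and only IgG replicate 1 was far above.

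The same library held the SNHG5 snoRNAs. SNORD50A had 105 reads and SNORD50B 171 reads in IgG replicate 1, and the other 3 libraries together had 1 and 6. Set against the host, the 2 SNORD50 rows held 142 reads per 100 reads of SNHG5 in IgG replicate 1, against 4.62 in anti-PHGDH replicate 1, 0.239 in anti-PHGDH replicate 2 and 0 in IgG replicate 2. For GAS5 the 10 snoRNA rows held 42.7 reads per 100 host reads in IgG replicate 1, and 13.7, 5.44 and 4.81 in the other libraries in that order. The snoRNA rows of SNHG1, SNHG3, SNHG6, SNHG7, SNHG8, SNHG15 and SNHG16 were at 0 in IgG replicate 1, although SNHG1 and SNHG3 themselves had 542 and 1526 reads there. Over all 34 rows the share was 22.4 snoRNA reads per 100 host reads in IgG replicate 1 and 1.64 to 3.07 in the others. A read in a snoRNA row may come from the mature snoRNA or from an unspliced host transcript, and the tables cannot tell these apart.

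**Figure D4:**
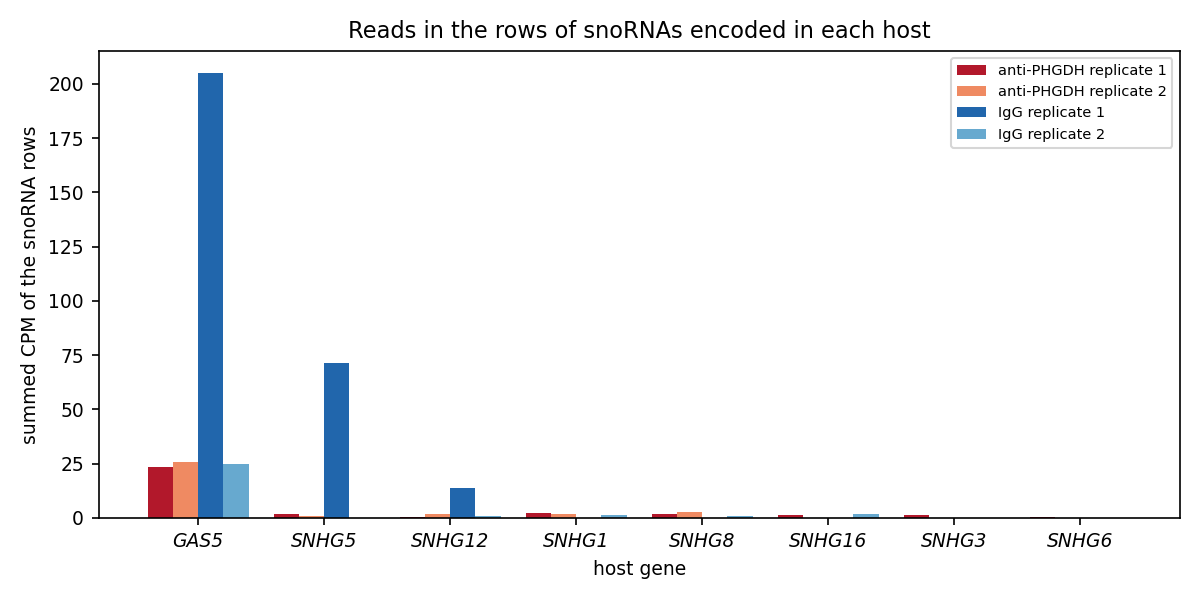
Summed CPM of the snoRNA rows of each host (bars from 0) in the 4 libraries; SNHG7 and SNHG15, whose snoRNA rows were at 0 throughout, are not drawn. IgG replicate 1 holds 205 CPM for GAS5, 71.2 CPM for SNHG5 and 13.9 CPM for SNHG12, and the other libraries hold 23.2 to 25.5 CPM for GAS5 and under 3 CPM for every other host.

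Host transcripts can share reads with overlapping genes. In the RefSeq annotation 5 of the 10 members overlap a gene that is not a snoRNA: GAS5 overlaps GAS5-AS1 and ZBTB37, SNHG3 overlaps RCC1, SNHG6 overlaps MCMDC2, SNHG7 overlaps DIPK1B, and SNHG12 overlaps TRNAU1AP. The use of strand and the handling of reads on 2 genes are not given in the sources used here, so values of these 5 are less certain than those of SNHG1, SNHG5, SNHG8, SNHG15 and SNHG16. EIF4A1, EEF1B2 and RPL7A, snoRNA host genes that every cell uses, were listed at 0 in all 4 libraries, so a 0 in these tables need not mean that a transcript was absent.

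Of 17 other long noncoding snoRNA hosts, 4 were at 0 in all libraries (SNHG14, SNHG18, SNHG22 and SNHG32) and 11 were tested, with 0 called in either direction. The groups did not overlap for 4 of the 11 in the higher direction (SNHG10, SNHG11, SNHG17 and SNHG20) and for SNHG21 in the lower, beside 38.3% and 6.16% of all genes tested, and the median log2 fold change was 0.91. SNHG29 was at 71.9 and 103 CPM on anti-PHGDH beads and at 0 and 109.5 CPM on IgG beads. SNHG21 was at 7.43 and 23.0 CPM on anti-PHGDH beads and at 202 and 28.5 CPM on IgG beads, and SNHG30 at 16.9 and 46.9 against 157 and 39.3 CPM. ZFAS1 was at 15.7 and 81.4 CPM on anti-PHGDH beads and at 18.6 and 70.9 CPM on IgG beads, low in both libraries numbered 1, as SNHG5 was.

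Protein-coding snoRNA hosts, which are mostly translation and ribosome genes, gave 0 calls among 32 tested of 36 listed. The groups did not overlap for 7 of the 32, all lower with anti-PHGDH (DKC1, NOP56, WDR43, TAF1D, TCP1, PTCD3 and RPL5), and for 0 in the higher direction, beside 6.16% and 38.3% of all genes tested, and the median log2 fold change was -0.65. Of the 32, 31 were above 0 in IgG replicate 1, and among all genes above 0 there the shares were 16.2% lower and 19.3% higher. RPL3 was at 3736 and 5735 CPM on anti-PHGDH beads and at 2147 and 5598 CPM on IgG beads, RPS3 at 2057 and 6104 against 317 and 6931 CPM, and RPL4 at 2110.3 and 3107 against 5996 and 3092 CPM. Among 15 TOP mRNAs other than those of ribosomal proteins, 13 were tested and 0 called, with a median log2 fold change of 0.53. Their groups did not overlap for 3 of the 13 in the higher direction (EEF1A1, EIF3L and PABPC1) and for TPT1 in the lower. Beside these stand 38.3% and 6.16% of all genes, or 19.3% and 16.2% of genes above 0 in IgG replicate 1, as all 13 were. The translation elongation factor mRNA EEF1A1 was at 3281 and 2642 CPM on anti-PHGDH beads against 1968 and 1946 CPM on IgG beads (limma adjusted p = 0.714). RACK1 was at 3533 and 4958 against 1670.1 and 4994 CPM, EEF1G at 2581 and 2637 against 939 and 2885 CPM, and NAP1L1 at 279.9 and 619.8 against 6268 and 590.1 CPM.

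The median profile of the members over the 4 libraries, on log2(CPM + 1) minus each gene's own mean, was -0.83 and 0.37 in anti-PHGDH replicates 1 and 2 and -0.48 and 0.59 in IgG replicates 1 and 2. GAS5 lay nearest to it among the members (root mean square difference 0.452) and SNHG15 farthest (2.729). Outside the lists the nearest genes were SEC62 (0.091), DDX46 (0.103) and MRPL12 (0.111), and SEC62 was at 54.1 and 132 CPM on anti-PHGDH beads and at 68.9 and 145 CPM on IgG beads. With 4 libraries such a likeness is a description of these libraries only.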

How the data were processed

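RIP-seq libraries of HEK293T cells, 2 with anti-PHGDH and 2 with IgG, were compared; titles gave the groups and replicate numbers. Each library has 1 deposited table of CPM values, scaled by the authors to the reads assigned to genes; the submitters' processing notes name STAR 2.5.4b, featureCounts and hg38, without roles or settings, and annotation, strand and duplicate handling are not given in the sources used here. Low-input cDNA was amplified without stated molecular identifiers, so intervals cover counting error only.

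Reads were recovered because CPM values are whole multiples of 1 read (99.98% to 100% of values above 0 within the rounding, and all 40 member values). The value of 1 read was 0.258 to 0.822 CPM, and a count of 0 allows 3 reads, or 0.774 to 2.47 CPM. Antibodies were compared with limma 3.58.1 (R 4.3.3; eBayes with trend) on log2(CPM + 1) without covariates, over genes that reached 5 CPM in 2 or more libraries, two-sided, with Benjamini-Hochberg adjustment over all genes. A fold change on this scale understates the change of low genes. edgeR 4.0.16 and DESeq2 1.42.0 on the recovered reads were alternatives, beside pseudocounts, filters, scalings, a replicate block and leaving out each library; the scripts were tested on simulated data. Ratios within a replicate number have exact conditional binomial (Clopper-Pearson) 95% intervals.

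All members are named; of other lists, the up to 4 genes with the highest mean CPM are named, together with the 3 genes of nearest profile; 1 gene that this rule names is not reported here; genes given by name in counts were chosen after their values were seen. Members and lists were chosen with earlier results of these data known. Coordinates and starts are from RefSeq (GRCh38.p14).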

Additional observations from a re-analysis of the deposited data

How the results depend on the processing

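No member passed the threshold in 16 of the 17 alternative fits. The exception was the fit without IgG replicate 2. It sets IgG replicate 1 alone against both anti-PHGDH libraries and assumes that this library varies like them. Its fold changes ran from -3.02 (SNHG12) to 6.86 (SNHG15), with a members' median of 0.21 beside 3.60 for all genes. In every pair, SNHG7, SNHG8, SNHG15 and SNHG16 were then at least 2-fold higher (75.7% of all genes). SNHG3 and SNHG12 were at least 2-fold lower (12.7%). Genes called higher (1) numbered 11 when 0.1 was added before the log, 3 when genes from 1 CPM were kept, 6 when all genes were kept and 4 with the replicate block. They numbered 0 after centring on library medians, with no trend in limma, in edgeR, in DESeq2 and in edgeR with the block (43, 363, 21, 89 and 10 genes higher and 359, 2, 162, 149 and 0 lower at an unadjusted p under 0.05). With 1 library left out they ran from 0 to 7129 and genes called lower (0) from 0 to 1032, both highest without IgG replicate 2; without IgG replicate 1 they were 99 and 3.

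The members' median log2 fold change (-0.29) was -2.78 after centring on medians, a shift of every gene by a constant, and ran from -0.95 to 0.55 without 1 library. Its distance from the median of all genes (-2.21) was -3.67 at a pseudocount of 0.1, -0.66 after quantile normalization, -3.64 in edgeR with the replicate block and -0.29 among genes above 0 in IgG replicate 1, and ran from -3.38 to -0.68 without 1 library. The median of all genes was 1.92 with CPM as deposited and -0.57 after centring. Members 2-fold higher in every pair (0) ran from 0 to 4 without 1 library, with 4 without IgG replicate 2, where 75.7% of all genes met the rule. Members 2-fold lower (0) were 1 after centring, 1 after quantile normalization and 1 at 1.5-fold (SNHG6 each time), and 0 to 3 without 1 library, beside 0.378% to 12.7% of all genes. Members whose groups did not overlap ran from 2 to 4 (higher) and 3 to 5 (lower) without 1 library, beside 43.9% to 79.7% and 8.28% to 25.1% of all genes.

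GAS5, SNHG3, SNHG6, SNHG12 and SNHG15 kept their direction in all 17 alternatives. The filters, the limma fit with no trend and the replicate block in limma leave each fold change as it is, so they could not turn a sign. Signs turned after centring for SNHG7 (-1.44), SNHG8 (-1.72) and SNHG16 (-0.99), after quantile normalization for SNHG7 (-0.75) and SNHG8 (-0.66), and for SNHG8 in edgeR (-0.57) and DESeq2 (-0.40). Without 1 library the turned values were 1.31 for SNHG5 without anti-PHGDH replicate 1 and 1.19 for SNHG5 without IgG replicate 2, -0.35 for SNHG8 without anti-PHGDH replicate 2, and 0.55 for SNHG1, -0.23 for SNHG7 and -1.74 for SNHG8 without IgG replicate 1; leave-one-out values ran from -1.19 to 0.55 for SNHG1, -1.82 to 1.31 for SNHG5, -0.23 to 2.35 for SNHG7 and -1.74 to 3.29 for SNHG8. The cause was not tested.

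Deviations of same-numbered libraries correlated at 0.01 across genes, under the limit of 0.1 set for pairing, and the labels do not say whether they share a culture or day, so they were not treated as pairs. IgG replicate 1 listed 4148 genes above 0 and IgG replicate 2 listed 14794, so a correlation near 0 cannot show that same-numbered libraries were unrelated. With the replicate block as a term, 0 members passed. The members' median of -0.29 could not change with that term in limma, because each number holds 1 library of each antibody.

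Depth limited SNHG6 and SNHG12 most, with 11 to 34 reads in the anti-PHGDH libraries. The run of 5 letters, the counts of overlap by library and the subset of genes above 0 in IgG replicate 1 were chosen after seeing the data.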

Other observations

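Nonsense-mediated decay is the pathway that removes several host transcripts, and the mRNAs of 10 of its factors were tested, with 0 called in either direction (limma) and a median log2 fold change of 1.94, beside 1.92 for all genes. SMG5, which acts late in the pathway, was at 95.4 and 78.1 CPM on anti-PHGDH beads and at 0 and 66.5 CPM on IgG beads. UPF3B, which links the exon junction complex to the decay machinery, was at 51.4 and 91.2 CPM on anti-PHGDH beads and at 228 and 121 CPM on IgG beads, and was the factor whose groups did not overlap in the lower direction, beside 6.16% of all genes. SMG1, the kinase of UPF1, was at 58.2 and 29.6 against 1.81 and 36.7 CPM.

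Of 13 long noncoding RNAs that are not snoRNA hosts, 10 were tested and 0 called, with a median log2 fold change of 0.70. Groups failed to overlap for 2 of the 10 in the higher direction (KCNQ1OT1 and NORAD) and for CRNDE in the lower, beside 38.3% and 6.16% of all genes tested. The cytoplasmic RNA NORAD was at 72.2 and 114 CPM on anti-PHGDH beads against 29.7 and 61.4 CPM on IgG beads (limma adjusted p = 0.706). The nuclear RNAs MALAT1 (117 and 240.0 against 77.4 and 360.3 CPM) and NEAT1 (76.4 and 78.9 against 209 and 62.0 CPM) had overlapping groups. OIP5-AS1 was at 1184 CPM in IgG replicate 1 and at 63.3 to 92.9 CPM in the other 3 libraries.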
